A study of Drosophila melanogaster with 6 samples.

Results

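The sperm leucyl aminopeptidases (S-Lap1, S-Lap2, S-Lap3, S-Lap4, S-Lap5, S-Lap7, S-Lap8 and loopin-1) and the don juan genes (dj and djl) were examined in testes with and without a functional copy of Zeus. They were taken from the gene table by name, as every row named S-Lap with a number and the rows loopin-1, dj and djl, which gave 10 of its 11491 genes. The libraries, 3 of Zeus KO and 3 of control, were made from poly(A) RNA of the whole testes of adult *Drosophila melanogaster*. Zeus (Rcd-1r in the table) is a retrogene copy of Caf40 (Rcd-1). Zeus KO flies carried small CRISPR/Cas9 deletions in its coding sequence that shift the reading frame and give early stop codons. The control was a line described as a control injection, which the sample labels call wild type, and both are labelled as strain BDSC #25710, which carries the nos-phiC31 integrase transgene, an attP2 landing site and mutant alleles of y, sc, v and sev. The flies received no treatment. The knockout lines are named in the plural and the libraries as biological triplicates, but how the lines are spread over the libraries was not stated, so p-values measure only the spread between these libraries.

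In *Drosophila* spermatids the mitochondria fuse and then elongate beside the growing axoneme as a pair of mitochondrial derivatives. The sperm leucyl aminopeptidases are testis-enriched relatives of a metal-dependent peptidase family, and they are among the most abundant proteins of the mature sperm, where they are found in the derivatives. Don juan is a basic protein of the mitochondrial derivatives of the sperm tail, and its mRNA is known to be made in spermatocytes and stored until spermatids elongate.

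The deposited table gives the mean of each group in normalized reads, that is, reads on the gene divided by the size factor of the library, with no correction for gene length. These means are written with 15 digits, and for 11446 genes (99.6%) only 1 set of whole reads in the libraries of each group gives all of the digits. The libraries found in this way are called A, B and C in control and D, E and F in Zeus KO. The letters follow the size factor and do not stand for replicate numbers. Among the sperm genes, dj, djl and S-Lap5 had 1 such set in both groups. S-Lap2, S-Lap3, S-Lap4, S-Lap7 and S-Lap8 had several sets, of which exactly 1 kept the libraries of each group within a factor of 2, and that set was used. This rule was chosen after the data were seen. For S-Lap7 the next set spread by a factor of 2.26 in control and 2.34 in Zeus KO, not far past the limit. With a slightly wider limit S-Lap7 would have no single set, so its values per library and its ratios depend on the limit chosen. For the others solved by this rule the next set spread by a factor of 4.27 or more. Of the 2999 genes with 1 set and a mean of at least 1000 normalized reads, 2992 (99.8%) kept within that factor in both groups. S-Lap1 and loopin-1 had several sets within the factor of 2 in at least 1 group, and are given by their group means with no test.

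The libraries held 12533272 to 18846182 sequenced reads, and the solved genes hold 10781501 to 16134411 reads per library. These ranges could not be matched library by library. Zeus RNA itself was present in every library, at 318.7, 337.7 and 380.4 normalized reads in control and 269.0, 268.8 and 328.3 in Zeus KO (log2 fold change -0.26 ± 0.131 SE, limma adjusted p = 0.314), and the groups overlapped. A frameshift need not remove the transcript, so this level is no check of the knockout. Markers of the male germline were present in both groups. The summed level of 6 spermatid markers ranged from 69794 to 102400 normalized reads over the control libraries and from 65580 to 92851 over those of Zeus KO, and that of 9 spermatocyte markers from 4712 to 5261 and from 5016 to 5253. None of these genes was called, nor was any of 5 spermatogonia and 5 cyst cell markers. Markers of other tissues differed more. All 4 gut markers, the digestive proteases Jon74E, betaTry, alphaTry and Jon25Bi, were called lower in Zeus KO, and their summed level was 12778 to 14219 in the control libraries, against 3695 to 5056. Jonah proteases outside this list did not all go the same way. Jon44E was called higher (log2 fold change 1.17) and Jon99Ci lower (-1.05), while Jon99Cii (-0.19) and Jon99Ciii (-0.21) were not called. Of 9 tested accessory gland markers 3 were called lower (Acp26Aa, Acp76A and Acp95EF), and all 10 in the table had sums of 127658 to 136519 in control, against 75384 to 89369. The largest share of these sums was Acp36DE (deposited means 53499 and 33757), which was solved only by the rule of a factor of 2 and is not among the 9. Each of the 9 had a log2 fold change below 0. Of 6 muscle markers 1 was called higher (up, a troponin T), with sums of 8839 to 10204 in control, against 12361 to 13087. Muscle genes outside this list went both ways. Act79B was called lower (log2 fold change -2.50) and Prm higher (0.59), and Act87E was not called (-0.06). Of 2 fat body markers, Lsp2 was called higher and apolpp lower, and 0 of 2 markers of the ejaculatory duct and bulb were called. No marker in the table was at 0 in control. The part of these tissues in the values of the sperm genes was not tested. In whole testes, fewer cells of a type and less RNA per cell cannot be told apart.

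No sperm aminopeptidase or don juan gene was called different in Zeus KO. A gene was called at a limma adjusted p under 0.05, adjusted over all genes by Benjamini-Hochberg, and a fold change of at least 1.5. Of the 11432 genes tested, 452 were called (3.95%), 236 higher (2.06%) and 216 lower (1.89%) in Zeus KO. Of dj, djl and S-Lap5, the sperm genes in that fit, 0 were called, and 0 had an unadjusted p under 0.05, which 18.8% of all genes had. With the 41 genes solved within a factor of 2 added, 3.96% of all genes and 0 of 8 sperm genes were called, and 0 had an unadjusted p under 0.05. The same counts of 0 were given by limma-voom, a test that weights each value by the spread expected at its level of reads.

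By the deposited means, 8 of the 10 genes were lower in Zeus KO and 2 were higher, although S-Lap7 and S-Lap2 turned higher after quantile normalization of the solved libraries. The log2 ratios ran from -0.27 for dj to 0.07 for S-Lap4, with a median of -0.12. Over the 11473 genes with both means above 0, the median was -0.00 and 50.3% were lower.

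**Figure D1:**
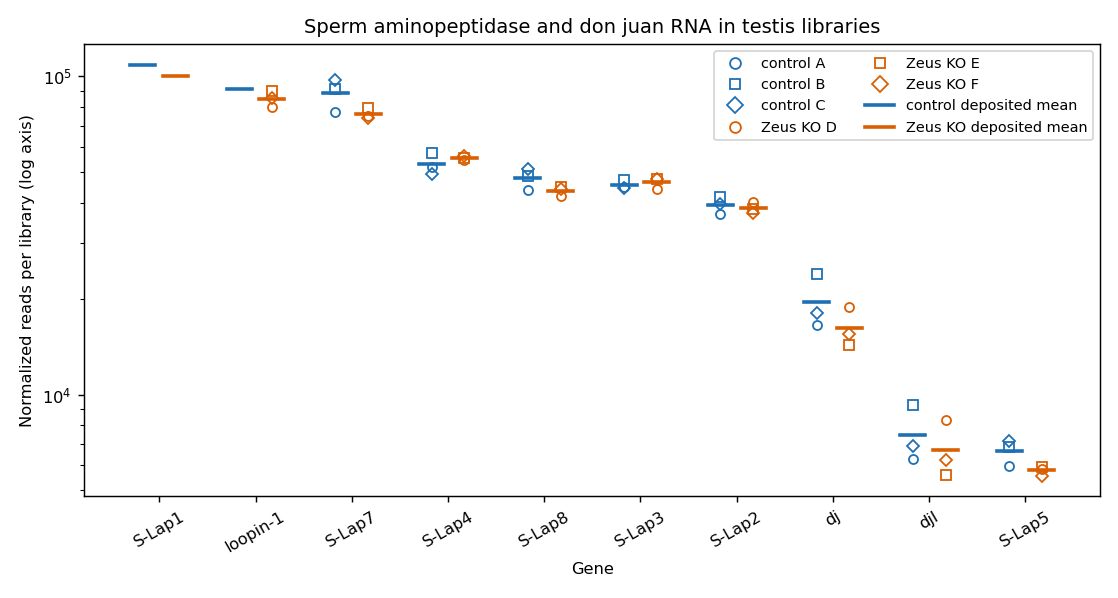
Normalized reads (vertical log axis) of the 10 sperm genes (horizontal axis) in control (blue) and Zeus KO (orange) testes. Each symbol is a library, each bar is the deposited mean of 3 libraries, and genes or groups with bars only could not be solved. S-Lap5 is the only gene with symbols in both groups in which the groups do not overlap.

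The aminopeptidases of chromosome arm 3L had log2 differences between -0.12 and 0.07. S-Lap1 (FBgn0035915) and S-Lap2 (FBgn0052351) are neighbours on the plus strand, at 3L:8617235-8619474 and 3L:8619888-8622091 in the coordinates of dm6, with 413 bases and no coding gene between them. S-Lap1 had the highest level of the 10 genes, with a deposited mean of 108994 normalized reads for control testes and 100613 for Zeus KO (log2 ratio -0.12). It ranked 2 among all genes of the table in control. Its 2 means are the only values available, so the difference has no replicate check.

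S-Lap2 had 36836, 41911 and 39827 normalized reads in control and 40193, 38247 and 37186 in Zeus KO. The groups overlapped over most of their range. Its log2 fold change was -0.04 (95% interval -0.25 to 0.18, limma adjusted p = 0.884), and it was 0.06 after quantile normalization, -0.08 without control A and 0.01 without control B. Its exons share 53 bases with GAPsec on the opposite strand, and whether reads were counted by strand was not stated.

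S-Lap3 (FBgn0045770, 3L:10465187-10468974) and S-Lap4 (FBgn0052064, 3L:10490861-10492934) lie 21886 bases apart on the plus strand. S-Lap3 had 44913, 47087 and 44573 normalized reads in control and 44289, 47615 and 47619 in Zeus KO. The groups overlapped, with control B and Zeus KO E and F at nearly the same level. The log2 fold change was 0.03 (95% interval -0.18 to 0.24, limma adjusted p = 0.894), and it was 0.14 after quantile normalization.

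S-Lap4 is a gene of 1 exon that lies inside an intron of Rbfox1, on the same strand and with 0 bases of shared exon. It had 52005, 57447 and 49345 normalized reads in control and 54779, 55284 and 56317 in Zeus KO. The Zeus KO libraries lay within the control range and differed among themselves by 1.41% (coefficient of variation), against 7.80% in control. The log2 fold change was 0.07 (95% interval -0.15 to 0.29, limma adjusted p = 0.751), the highest of the 8 solved genes. It was 0.21 after quantile normalization, 0.13 without control B and 0.02 without control C.

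The solved aminopeptidases of chromosome arm 2R had lower mean levels in Zeus KO, by log2 fold changes of -0.13 to -0.21, although after quantile normalization they were 0.09 for S-Lap7, -0.0026 for S-Lap8 and -0.11 for S-Lap5. S-Lap5 (FBgn0033860, 2R:13596677-13598750, plus strand, 1 exon) was the least abundant of the 10 genes. It had 5970, 6838 and 7137 normalized reads in control and 5852, 5922 and 5556 in Zeus KO. Each Zeus KO library was below each control library, but control A exceeded Zeus KO E by less than the control libraries differed from each other. Such a lack of overlap was seen in 23.5% of all genes tested, and toward lower levels in 11.9%. The log2 fold change of S-Lap5 was -0.20 ± 0.0964 SE (95% interval -0.41 to 0.01, limma adjusted p = 0.292).

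S-Lap7 (FBgn0033868, 2R:13778124-13780245, minus strand) lies inside an intron of Cpr50Ca, on the opposite strand, with 0 bases of shared exon, and 179373 bases from S-Lap5. It had 77101, 91377 and 97760 normalized reads in control and 75154, 79418 and 74122 in Zeus KO. Control B and C were above all Zeus KO libraries, whereas control A lay among them. The control mean was 88746 ± 10578 and the Zeus KO mean 76232 ± 2807 (SD, n = 3 each). The log2 fold change was -0.21 ± 0.114 SE (95% interval -0.46 to 0.04, limma adjusted p = 0.344), and it was -0.31 without control A and -0.14 without control C, and turned to 0.09 after quantile normalization (adjusted p = 0.701).

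S-Lap8 (FBgn0034132, 2R:16491100-16493233) and loopin-1 (FBgn0259795, 2R:16534943-16537086) lie on the plus strand with 41709 bases and 2 coding genes between them. S-Lap8 had 43830, 48706 and 51202 normalized reads in control and 41992, 44934 and 44133 in Zeus KO. Here too control B and C were above all Zeus KO libraries and control A was not. The log2 fold change was -0.13 (95% interval -0.35 to 0.09, limma adjusted p = 0.531), and it was -0.0026 after quantile normalization, -0.19 without control A and -0.08 without control C.

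Loopin-1, a leucyl aminopeptidase of the mitochondrial derivatives of spermatids, had a deposited mean of 91523 normalized reads for control testes and 85198 for Zeus KO (log2 ratio -0.10). The Zeus KO libraries had 79918, 90158 and 85520. In control, 2 sets of reads kept within the factor of 2. In the first set the libraries had 88660, 94461 and 91448, and in the other 67637, 86361 and 120571. The groups would overlap in either set, and no choice between them was made.

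The don juan genes varied more between libraries than S-Lap5. dj (FBgn0019828, 3R:7059315-7060524) and djl (FBgn0037463, 3R:7060767-7061919) are neighbours on the plus strand, 242 bases apart. dj had 16550, 23946 and 18026 normalized reads in control and 18863, 14338 and 15476 in Zeus KO. Control B was the highest and Zeus KO E the lowest, and Zeus KO D was above control A and C. The log2 fold change of dj was -0.26 ± 0.147 SE (95% interval -0.58 to 0.07, limma adjusted p = 0.380). It was -0.10 without control B and also -0.10 after quantile normalization, but -0.37 without control A and -0.37 without Zeus KO D, so that its size moved with single libraries in both directions.

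The don juan-like gene djl, a relative of dj that also encodes a protein of the sperm tail, had 6272, 9281 and 6900 normalized reads in control and 8297, 5596 and 6225 in Zeus KO. The same libraries were high as for dj, control B first and Zeus KO D next, and Zeus KO E was again the lowest. The log2 fold change of djl was -0.16 ± 0.166 SE (95% interval -0.52 to 0.21, limma adjusted p = 0.657), and it was 0.01 without control B, -0.04 without Zeus KO E, -0.08 after quantile normalization, -0.28 without control A and -0.32 without Zeus KO D. The coefficient of variation within a group reached 21.2% for djl and 20.1% for dj, and 9.12% for S-Lap5, the aminopeptidase with 1 set of reads. It was 1.41% to 11.9% for the other solved aminopeptidases, but their sets were picked as those within a factor of 2, which limits the spread they could show.

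**Figure D2:**
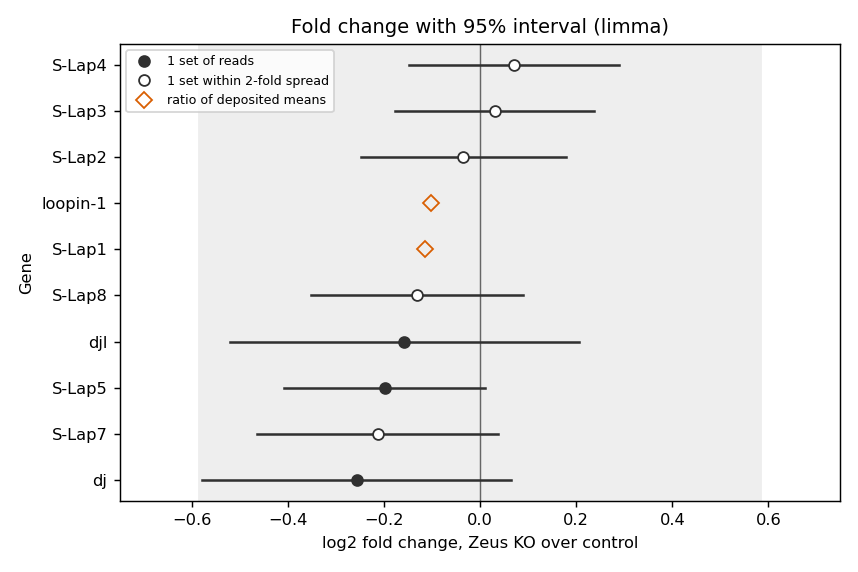
Zeus KO over control, as log2 fold change (horizontal axis) for each of the 10 genes (vertical axis). Circles are limma estimates with their 95% interval as a line, filled where 1 set of reads was found and open where 1 set kept within a factor of 2, diamonds are ratios of the deposited means with no error, and the grey band covers fold changes under 1.5. All 8 intervals include 0 and lie in the band, that of dj reaching -0.58 near its edge, and under quantile normalization, which is not drawn, S-Lap7 and S-Lap2 change sign.

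In the plot of fold changes each 95% interval lay inside the 1.5-fold limits, but that of dj only just (-0.58). Over the 14 alternative settings, the intervals of the 6 solved aminopeptidases stayed inside the limits, whereas that of dj passed the lower limit in 7 and that of djl in 4. The lowest bounds were -0.71 for dj and -0.66 for djl, both without control C. The interval of dj excluded 0 without control A (-0.69 to -0.05) and without Zeus KO D (-0.67 to -0.07), and that of djl without Zeus KO D (-0.64 to -0.01), with limma adjusted p of 0.152, 0.138 and 0.201. Without control A, those of S-Lap5 (-0.49 to -0.06) and S-Lap7 (-0.56 to -0.06) also excluded 0, with limma adjusted p of 0.115 and 0.124.

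**Figure D3:**
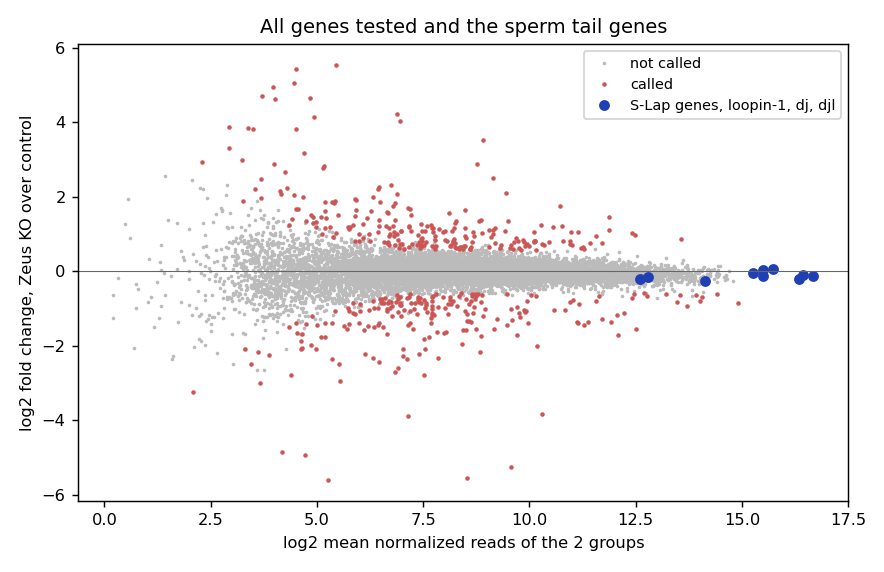
Zeus KO over control, as log2 fold change (vertical axis) against the log2 mean normalized reads of the 2 groups (horizontal axis) for the 11432 genes tested, with called genes in red and the 10 sperm genes in blue. The sperm genes lie at the high end of abundance and close to 0, and for S-Lap1 and loopin-1 the ratio of deposited means is drawn.

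The plot of all genes places the group among the most abundant RNAs of the testis. In control, 3 of the 10 were among the 10 genes with the most normalized reads, 6 among the first 20 and 7 among the first 50, while dj ranked 76, djl 333 and S-Lap5 409. The 10 genes held 3.34% of all normalized reads in control, against 3.25% in Zeus KO, of which the 8 aminopeptidases held 3.16% and 3.10%.

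Levels of different genes were compared per kilobase of annotated exon. In control, S-Lap1 had 51388 normalized reads per kilobase, loopin-1 42688 and S-Lap7 41822. S-Lap4 followed with 25522 and S-Lap8 with 23315, which did not differ beyond their spread in control (23792 to 27699 for S-Lap4 and 21329 to 24916 for S-Lap8). S-Lap2 had 18884, dj 16122 and S-Lap3 15104 per kilobase, and the control range of dj (13678 to 19790) covered that of S-Lap3 and overlapped that of S-Lap2. djl had 6816 and S-Lap5 3206 per kilobase, and these ranges did not overlap each other or any other gene's. S-Lap3 has 3 annotated transcripts over 3014 exon bases, so its value per kilobase depends on which of them is made. In Zeus KO the order was the same except that S-Lap3 (15431 per kilobase) stood above dj (13410), and their ranges overlapped there as well. Other neighbours separated in Zeus KO, S-Lap4 (26412 to 27154) from S-Lap8 (20434 to 21866) and S-Lap2 (17767 to 19204) from dj (11850 to 15589).

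The solved genes fell into several patterns over the 6 libraries. For S-Lap5, S-Lap7 and S-Lap8, control C was the highest library, at 0.16 to 0.25 above the mean of the 6 libraries on the log2 scale, with control B next. For dj and djl, control B was the highest, at 0.44 and 0.41, with Zeus KO D next at 0.10 and 0.25 and control C near the mean at 0.03 and -0.02. S-Lap2, S-Lap3 and S-Lap4 deviated from their means by -0.13 to 0.10 in every library.

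**Figure D4:**
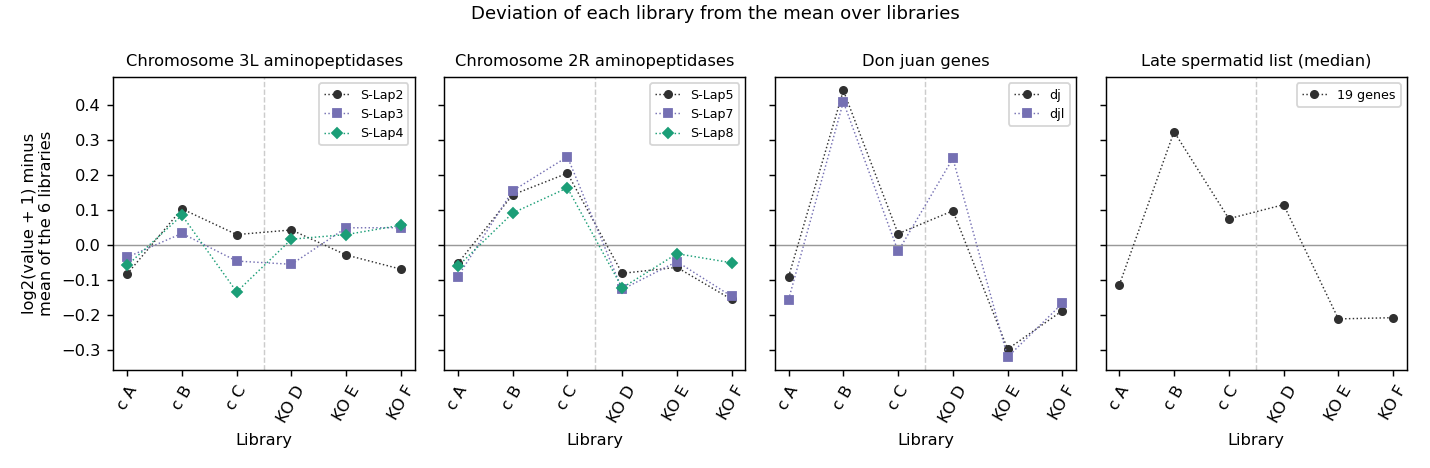
Log2(value + 1) of each library minus the mean over the 6 libraries (vertical axis), for control libraries A to C (c) and Zeus KO libraries D to F (KO), in panels for the solved 3L aminopeptidases, the 2R aminopeptidases, dj with djl, and the median of 19 late spermatid genes. Dotted lines join the points of a gene and imply no order. The don juan panel and the late spermatid panel both peak in control B, at 0.44 for dj, 0.41 for djl and 0.32 for the list, whereas the 2R panel peaks in control C.

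Ratios of neighbouring or related genes were taken within each library. The ratio of djl to dj was 0.379, 0.388 and 0.383 in control and 0.440, 0.390 and 0.402 in Zeus KO. Zeus KO D stood highest and all Zeus KO libraries were above all control libraries, by as little as 0.390 against 0.388. The ratio of S-Lap7 to S-Lap5 was 13.3 ± 0.393 in control and 13.2 ± 0.310 in Zeus KO (SD, n = 3 each), although each gene varied more than this within control. S-Lap4 stood to S-Lap3 as 1.16 ± 0.0566 in control and 1.19 ± 0.0390 in Zeus KO. The ratio of S-Lap7 to S-Lap4 was 1.48, 1.59 and 1.98 in control and 1.37, 1.44 and 1.32 in Zeus KO, and that of S-Lap8 to S-Lap3 was 0.976, 1.03 and 1.15 in control and 0.948, 0.944 and 0.927 in Zeus KO. In both, each Zeus KO library was below each control library. These ratios and that of S-Lap7 to S-Lap8, 6 in all, were chosen after the values were seen. Groups of 3 cannot give an exact 2-sided permutation p below 0.1, so no ratio could have passed 0.05. It was 0.1 for the 3 ratios whose groups did not overlap (djl to dj, S-Lap8 to S-Lap3 and S-Lap7 to S-Lap4), which is 0.2 after Benjamini-Hochberg adjustment over the 6, and 0.3 to 0.6 for the others.

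The wider set of sperm tail and late spermatid genes were often highest in control B, as dj and djl were. Of 19 such genes in the table, 13 had their highest level there, beside 23.0% of all genes tested. So did 9 of 10 accessory gland markers and 8 of 11 testis paralogs of mitochondrial proteins. In the fit, 0 of 17 late spermatid genes were called and 4 had an unadjusted p under 0.05, beside 18.8% of all genes tested. Their median log2 fold change was -0.21 with 14 below 0, beside a median of -0.00 over all genes tested. With no fold limit 1 would pass, scpr-A, at a log2 fold change of -0.49 (limma adjusted p = 0.0413). The most abundant were betaTub85D, the testis beta tubulin of the axoneme (deposited means 43257 and 41208), Mst98Ca, a sperm tail protein gene (32241 and 29250), and Mst87F, of the same kind (27681 and 23775). Mst87F had 20647, 33264 and 29134 normalized reads in control and 30264, 20465 and 20596 in Zeus KO, so that control B was the highest and Zeus KO D next, as for dj and djl.

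Genes listed for formation of the mitochondrial derivative, among them the meiotic regulator bol, showed no call either. Of 12 tested, 0 were called and 1 had an unadjusted p under 0.05, beside 18.8% of all genes tested. Their median log2 fold change was 0.11, with 5 below 0. The most abundant were bol, a translation regulator of meiosis (deposited means 18236 and 16649), knon, and Miro, a GTPase of mitochondrial transport (4920 and 4623). The ATP synthase relative knon had 7016, 6405 and 6825 in control and 7642, 7912 and 7953 in Zeus KO, which did not overlap (log2 fold change 0.22, limma adjusted p = 0.211). Groups that did not overlap were seen in 23.5% of all genes tested. Of 11 testis paralogs of mitochondrial proteins 0 were called and 1 had an unadjusted p under 0.05, with a median of -0.15 and 9 below 0. The most abundant were Porin2, an outer membrane channel (deposited means 10995 and 9877), Cyt-c-d, a testis cytochrome c (10798 and 9492), and SdhBL, a succinate dehydrogenase subunit paralog (9263 and 8714). The aminopeptidase relative grsm, which is of the same family, had deposited means of 7568 and 7186 (log2 fold change -0.08, limma adjusted p = 0.699).

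The genes most like the mean pattern of the 8 solved sperm genes over the 6 libraries, among genes with a mean of at least 100, were CG15368, UK114, CG34274, CG18810 and CG42691, each with a Pearson correlation of 0.99 or more across libraries. This likeness is common, since 556 of 8804 genes compared had a correlation above 0.9, and all of them share the depth and composition of the same 6 libraries. Over genes with 1 set and a mean of at least 100, 58.2% of the variance between libraries lay on a component with control B and C at one end and Zeus KO E and F at the other.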

How the data were processed

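The authors mapped 50-base reads of NEBNext libraries (testes had been kept in PBS for 1 to 2 days) to dm6 with STAR, counted reads on genes with featureCounts and compared groups with DESeq2, edgeR and limma. Tool versions, the annotation release and the use of strand are not given in the sources used here, so overlapping genes and reads shared between close paralogs such as the S-Lap genes are uncertain. The deposited signal is the mean of 3 libraries of reads divided by size factors. The authors' columns of fold changes, standard errors, test statistics, p-values, calls and overall means were not used. The authors' FastQC summary gave the range of sequenced reads.

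Whole reads per library were solved from the digits of each mean, where each library's value and the mean were written with 15 digits. The solver and the fit were tested on simulated data. The fit was limma 3.58.1 (R 4.3.3) with a trend on log2(value + 1), which understates the change of low genes, for every gene whose mean reached 1. The planned main design keeps genes with 1 set of reads. The genes solved within a factor of 2, and limma-voom, were added after seeing the data. Values printed for dj, djl and S-Lap5 come from the main design, and those of the other solved sperm genes from the added one. Alternatives were other pseudocounts, filters, scalings, no trend and leaving out each library. Positions and exon lengths come from Ensembl release 115. The named genes are all 10 sperm genes, Zeus and Caf40, from each list the called genes or else up to 3 most abundant, and the 5 genes most like the mean pattern. Acp36DE, and some Jonah protease and muscle genes outside the lists, are named as well. Caf40 had a log2 fold change of -0.06 (limma adjusted p = 0.800). Members and lists were chosen with earlier results of these data known. Sequences of the genes are not used here.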

Additional observations from a re-analysis of the deposited data

How the results depend on the processing

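No paired analysis was possible because the libraries solved from the group means carry no replicate number. The count of called genes was 452, and it ran from 301 to 557 when a library was left out, the lowest without control C. With the genes solved within a factor of 2 it was 454, and 301 to 562. The count of called sperm genes was 0 under every setting run. The median log2 fold change of dj, djl and S-Lap5 was -0.20 and ran from -0.32 to -0.10 when a library was left out. That of the 8 solved sperm genes was -0.14, was 0.0299 after quantile normalization, and ran from -0.23 without control A to -0.0464 without control B. Quantile normalization also turned S-Lap7 to 0.0943 and S-Lap2 to 0.0624, and leaving out a library gave -0.32 to 0.00722 for djl and -0.0849 to 0.00825 for S-Lap2, in both cases positive without control B. The causes were not tested. Over the 14 settings the limma adjusted p of single sperm genes was 0.115 or more, the lowest being that of S-Lap5. S-Lap1 and loopin-1 have no values per library in at least 1 group, and no setting could be run on them.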
